A study of Mus musculus with 6 samples.

Results

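The adrenergic receptors are the cell-surface receptors of noradrenaline and adrenaline, the transmitters of sympathetic nerves and of the locus coeruleus. They are G protein-coupled receptors of 3 families: the α1 receptors act mainly through Gq and calcium, the α2 receptors through Gi, often as brakes on transmitter release, and the β receptors through Gs and cyclic AMP. In brain they carry the arousal signal of noradrenergic fibres, and the thymus is a lymphoid organ that sympathetic nerves enter. On a spotted array for neurotransmission genes, the receptors were taken as all spots whose printed class was adrenergic receptors. The class held 16 oligonucleotides (oligos), 2 for each of 8 sequence entries, among 590 gene oligos of 288 entries. The 14 oligos of 7 entries are described here: Adra1a and Adra1b of the α1 family, a receptor printed only as alpha 2 together with Adra2b and Adra2c of the α2 family, and Adrb1 and Adrb3 of the β family. Each oligo was spotted at 2 positions on every array, 28 spots in all.

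The arrays compared total RNA of cortex and thymus from adult B10D2 mice. Each tissue was a single pool, of RNA from 6 cortices or from 5 thymi. Every hybridization, 3 per tissue, took 15 µg of that pool, copied into Cy5-labelled cDNA with random primers. The p-values below therefore measure the spread between hybridizations of 1 pool, not the spread between animals. In RNA from whole tissue, fewer cells of a type and less RNA per cell cannot be told apart.

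The thymus arrays were dimmer than the cortex arrays as a whole, so the receptors' differences are given both without scaling and after scaling. The median net signal of the gene spots, signal minus local background, was 830 to 2542 on the cortex arrays and 480 to 956 on the thymus arrays. The median log2 difference of all 465 tested oligos, cortex minus thymus, was 0.86 unscaled and -0.10 after quantile scaling. Centring each array on its control genes gave 0.48. A difference near 0 on the unscaled values is thus below that of a typical oligo on the array. The rank correlation of net signal between arrays was 0.781 to 0.941 within a tissue and 0.507 to 0.644 between tissues. Of the neuron markers, Gad2 and Eno2 were matched, and 5 of their 6 tested oligos were higher in cortex both with and without scaling, where 24.3% and 25.2% of all tested oligos were. Of the 4 Gad2 oligos, 2 are printed as gad65. The other 2, named Gad2 by accession, are printed as GAD67, the usual name of the product of Gad1. Mbp, a myelin gene, went both ways after scaling, at 3.66 ± 0.41 on oligo 1 (adjusted p = 4.58e-06, limma) and at -1.44 ± 0.36 on oligo 2 (adjusted p = 0.00347). Unscaled, oligo 1 of Mbp was at 4.06 ± 0.81 (adjusted p = 1.5e-05, limma) and oligo 2 was not called, at -0.44 ± 0.73. Of the B and myeloid cell markers only Pax5, a regulator of the B cell lineage, was matched. After scaling it was higher in thymus on oligo 2, at -2.33 ± 0.35 (adjusted p = 5.17e-05, limma), and not called on oligo 1, at -0.30 ± 0.37. Unscaled, neither Pax5 oligo was called, at -1.59 ± 0.73 on oligo 2 (adjusted p = 0.098) and 0.71 ± 0.73 on oligo 1. Of the marker lists for T cells, adipocytes, and smooth muscle with vessels no gene was matched on the array. The share of these cells in the thymus pool therefore was not tested.

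The described adrenergic receptor oligos had a lower share above background than all gene oligos on each of the 6 arrays. On cortex array 2 and the thymus arrays the shares were near each other. An oligo counted as above background where most of its unflagged spots, thus both of 2, exceeded the local background by 2 SD. On the cortex arrays 8 of 13, 10 of 13 and 6 of 14 receptor oligos did, or 61.5%, 76.9% and 42.9%, where 87.8%, 82.7% and 71.3% of all gene oligos did. In thymus the counts were 8, 5 and 6 of 13, or 61.5%, 38.5% and 46.2%, beside 67.8%, 45.8% and 49.4% of all gene oligos. The gap to all gene oligos was widest on cortex arrays 1 and 3. On cortex array 2 and the thymus arrays it was smaller than the share of a single receptor oligo. The oligos of the class that are not described are not in these counts. Of unflagged blank spots, 3.17% to 6.67% were above background. The difference between receptor oligos and the rest was not tested.

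**Figure D1:**
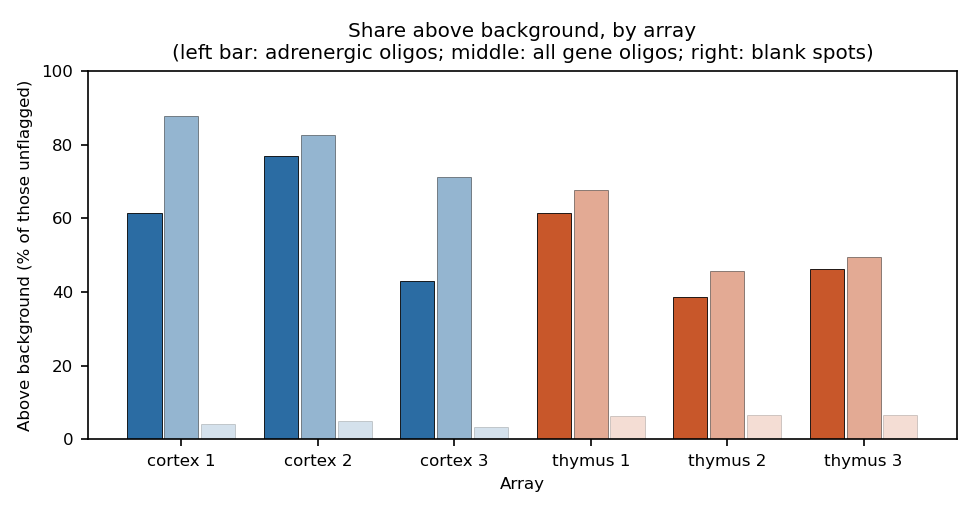
Percent of unflagged items above local background on each of the 6 arrays (x axis), for the described adrenergic receptor oligos, for all gene oligos and for blank spots. The receptor bar is below the bar of all gene oligos on each array, with the widest gaps on cortex arrays 1 and 3. On the other arrays the gap is smaller than the share of a single receptor oligo.

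Detection differed between the oligos of a receptor. Adra1a oligo 1 and Adrb3 oligo 1 were above background on 6 of 6 arrays, and Adra1b oligo 2 and Adrb3 oligo 2 on 5. For Adrb3 oligo 1 on thymus array 3 this rests on 1 unflagged spot. Oligo 2 of alpha 2 and oligo 1 of Adra2b were above background on no array, and oligo 1 of Adra1b and of Adra2c on 1 array each. For alpha 2, Adra1b, Adra2b and Adra2c, 1 of the 2 oligos carried every detection or all but 1. The oligo sequences were not used here, and apart from 1 ratio within arrays, taken after the values were seen, different oligos were not set against each other. The test took oligos that were above background on 3 or more arrays and had 2 or more values in each tissue, which left 9 of the 14.

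**Figure D2:**
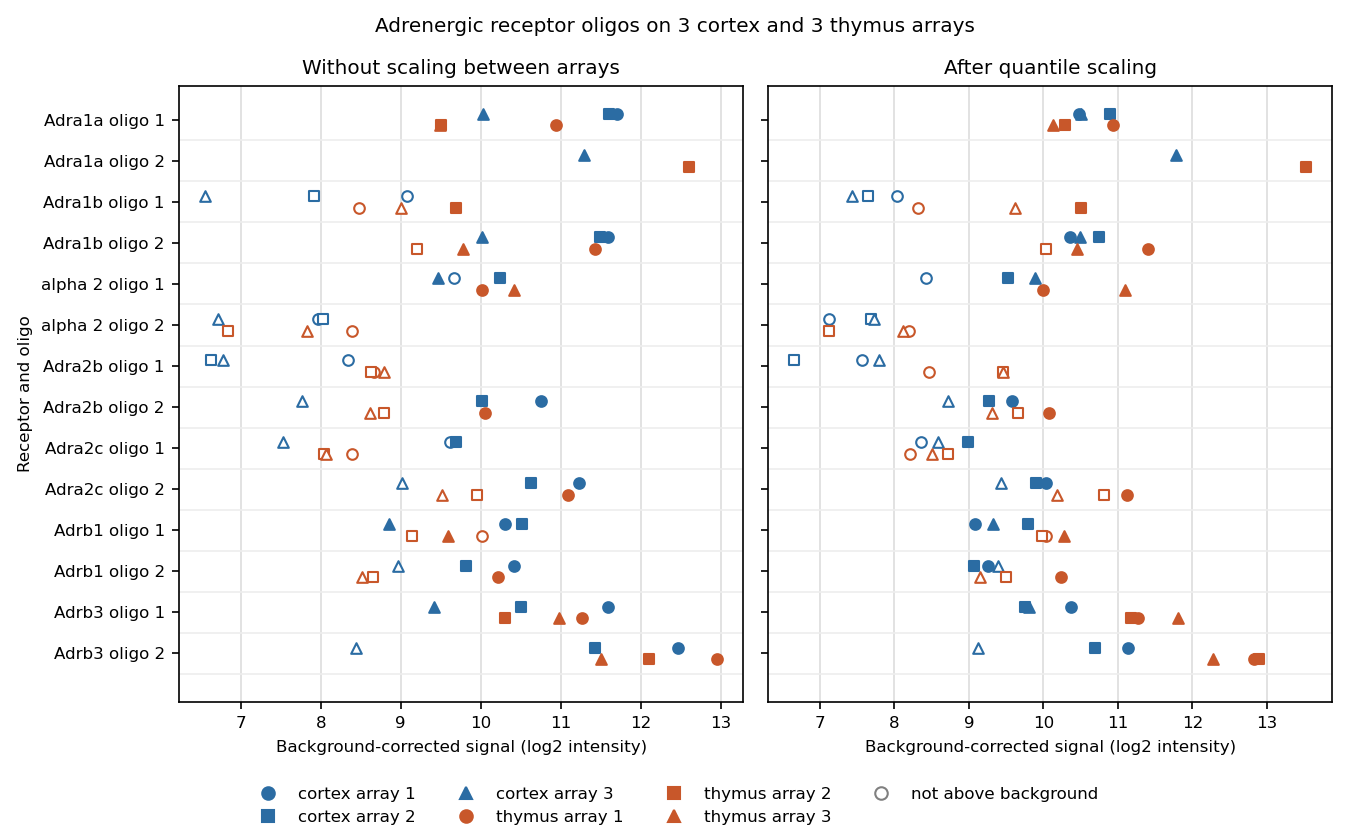
Background-corrected log2 intensity (x axis) of each of the 14 described oligos (y axis) on 3 cortex and 3 thymus arrays, without scaling on the left and after quantile scaling on the right. Open symbols are values not above background. Both Adrb3 oligos overlap between tissues on the left and separate on the right, where thymus is higher.

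Adrb3, the β3 receptor best known from fat cells, was called higher in thymus on both of its oligos after quantile scaling. Oligo 2 had the largest difference toward thymus of the 9 oligos described and tested in each of the 3 fits. Oligo 1 came next after quantile scaling, but behind oligo 1 of alpha 2 with control genes and unscaled. For oligo 2 the scaled log2 values were 11.13, 10.69 and 9.12 on the cortex arrays and 12.83, 12.90 and 12.27 on the thymus arrays. Every thymus value was above every cortex value, and cortex array 3, not above background there, was the lowest. The difference, cortex minus thymus, was -2.35 ± 0.45 log2 units (SE, n = 3 arrays per tissue), a 5.1-fold higher value in thymus (adjusted p = 0.000434, limma). For oligo 1 the scaled values were 10.37, 9.75 and 9.81 on the cortex arrays and 11.27, 11.17 and 11.80 on the thymus arrays. The value on thymus array 3 rests on 1 spot, as the other was flagged. The tissues did not overlap for oligo 1 either. The difference was -1.44 ± 0.36, a 2.71-fold higher value in thymus (adjusted p = 0.00371, limma). The 2 oligos called Adrb3 in the same direction, as did the oligos of 48 of the 172 entries with 2 tested oligos on the array, whereas 63 entries had 1 of 2 called and 7 had calls of opposite direction.

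Without scaling, neither Adrb3 oligo passed. The unscaled log2 values of oligo 2 were 12.47, 11.43 and 8.44 on the cortex arrays and 12.96, 12.11 and 11.51 on the thymus arrays. Thymus array 1 was the brightest of the 6, but cortex array 1 was above thymus arrays 2 and 3. The difference was -1.42 ± 0.73, with a 95% confidence interval from -2.84 to 0.01 (adjusted p = 0.153, limma). For oligo 1 the unscaled values were 11.59, 10.50 and 9.41 on the cortex arrays and 11.27, 10.30 and 10.98 on the thymus arrays. Cortex array 1 was the brightest and the difference was -0.34 ± 0.73 (adjusted p = 0.792, limma). Centred on the control genes, oligo 2 passed at -1.80 ± 0.48 (adjusted p = 0.000877, limma) and oligo 1 did not, at -0.73 ± 0.47 (adjusted p = 0.235).

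Ordered from the end higher in thymus, Adrb3 oligo 2 was the 8th of 465 tested oligos both after quantile scaling and unscaled, and oligo 1 the 46th and the 65th. Set against the median of all tested oligos, oligo 2 lay at -2.25 scaled and -2.28 unscaled, and oligo 1 at -1.34 and -1.20. Centring on control genes takes 1 constant from each array, so its order is that of the unscaled values apart from oligos with missing values, and it adds no separate check.

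A ratio between oligos of the same array needs no scaling between arrays, and one was taken after the values had been seen. Adra1a oligo 1 was the reference, the other receptor oligo above background on all 6 arrays. The unscaled log2 ratio of Adrb3 oligo 2 to it was 0.77, -0.18 and -1.59 on the cortex arrays and 2.02, 2.61 and 2.02 on the thymus arrays. For Adrb3 oligo 1 the ratio was -0.10, -1.11 and -0.61 on the cortex arrays and 0.32, 0.79 and 1.49 on the thymus arrays. Both ratios were higher on every thymus array than on any cortex array, by 2.55 and 1.48 log2 units. By exact permutation of the arrays, two-sided, each gave p = 0.1, and a design of 3 and 3 cannot reach a lower value. The test therefore could not pass the threshold. Of the 9 tested receptor oligos, Adra1a oligo 1 had the unscaled difference farthest toward cortex, at 1.13 log2 units. Its choice as reference thus favoured a separation of the tissues. How many other oligos of the array separate against this reference was not tested. The ratio of oligo 2 on cortex array 3 rests on a value that was not above background, as 1 of its 2 spots was not. The ratio of oligo 1 on thymus array 3 rests on 1 unflagged spot of Adrb3.

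The spots behind these values were uneven in places. On cortex array 3 the 2 spots of Adrb3 oligo 2 had net signals of 5 and 1043, a gap of 3.44 log2 units after background correction, where the median gap of all tested oligos was 0.34. Without that array the difference of oligo 2 was -1.80 (adjusted p = 0.00594, limma). On the other arrays the net signals of oligo 2 were 4200 and 6821 on cortex array 1 and 1968 and 3169 on cortex array 2. They were 5426 and 10894, 3819 and 4592, and 1632 and 4359 on thymus arrays 1 to 3. The second of the 2 spots was the brighter on all 6 arrays. For Adrb3 oligo 1 on thymus array 3, the first spot, with a net signal of 992.5, was flagged and not above background. The second had 1795. With flagged spots kept, the scaled value of oligo 1 there was 11.35. The scaled difference of oligo 1 was then -1.27 ± 0.34 (adjusted p = 0.00809, limma).

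**Figure D3:**
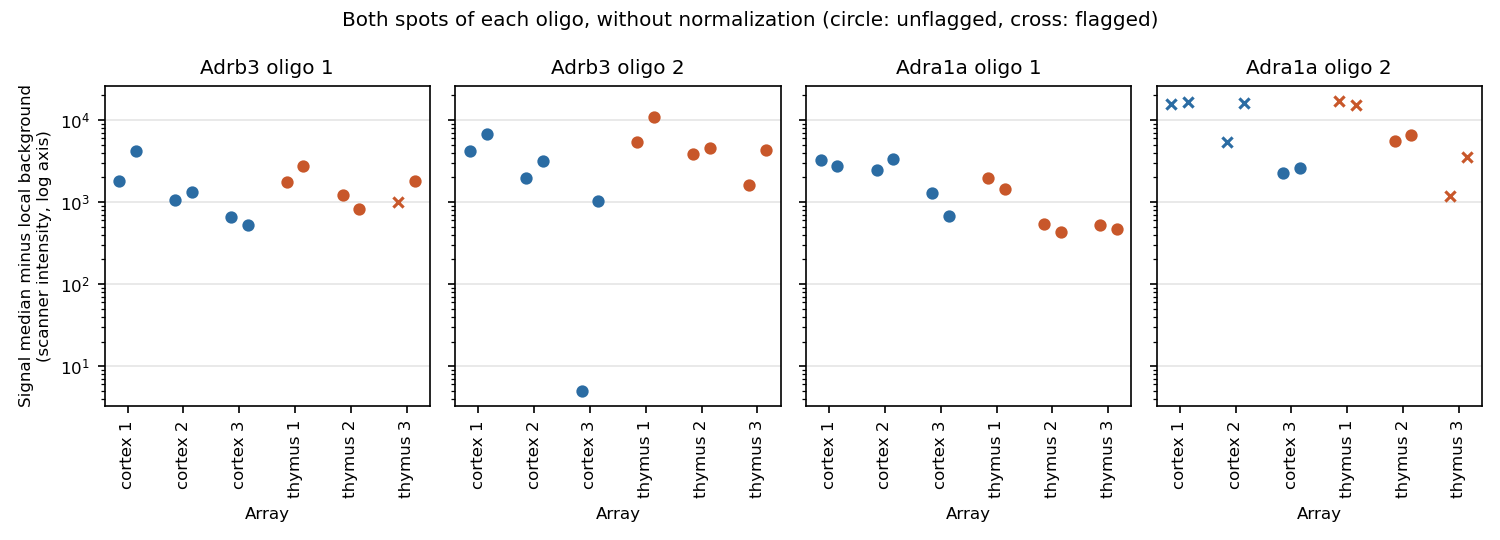
Net signal (signal median minus local background, log axis) of both spots of each oligo of Adrb3 and Adra1a on the 6 arrays, without normalization, with flagged spots as crosses. The net signal of 5 on cortex array 3 stands apart for Adrb3 oligo 2, and 8 of 12 spots of Adra1a oligo 2 are flagged.

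The image names in the headers held 3 different pairs of numbers, which were taken here as scan settings. Cortex was compared with thymus within those that held both. Within setting 1, with cortex arrays 1 and 2 and thymus array 1, the scaled difference of Adrb3 was -1.92 for oligo 2 and -1.21 for oligo 1. Within setting 2, with cortex array 3 and thymus array 2, it was -3.78 and -1.37. Unscaled these were -1.01 and -0.22 within setting 1 and -3.68 and -0.88 within setting 2, where the median of all tested oligos was 0.71 and 0.39. Between cortex array 1 and thymus array 1, dated the same day in the image names, it was -1.70 and -0.90. Unscaled, the same-day difference was -0.49 for oligo 2 and 0.32 for oligo 1, where the median of all tested oligos was 0.95. With scan setting as a block both oligos kept an adjusted p under 0.05 after scaling, at -2.72 (adjusted p = 0.00251, limma) and -1.28 (adjusted p = 0.0121).

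Adrb1, the β1 receptor of heart and of cortical neurons, did not pass on either oligo. The scaled values of oligo 1 were 9.08, 9.79 and 9.32 on the cortex arrays and 10.03, 9.98 and 10.27 on the thymus arrays. They did not overlap, but on thymus only array 3 was above background. The values on cortex arrays 1 and 2 rest on 1 spot each, as the other was flagged. With flagged spots kept the tissues overlapped, with cortex array 2 at 10.06 and thymus arrays 1 and 2 at 10.01 and 9.99. The scaled difference was -0.70 ± 0.35 for oligo 1 and -0.39 ± 0.37 for oligo 2 (adjusted p = 0.115 and 0.417, limma). Unscaled it was 0.30 ± 0.73 and 0.60 ± 0.73, with intervals from -1.13 to 1.73 and from -0.83 to 2.03. The direction thus turned with the scaling on both oligos, which were 0.31 log2 units apart in the scaled fit. The 2 Adrb3 oligos were 0.91 apart, and the median distance over the 172 entries was 0.69.

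Among the α2 receptors, oligo 1 of the entry printed as alpha 2 was called higher in thymus and Adra2c lay close to the threshold. Oligo 1 of alpha 2 had scaled values of 8.42, 9.53 and 9.88 on the cortex arrays and of 10.00 and 11.10 on thymus arrays 1 and 3. Both spots on thymus array 2 were flagged, so the fit used 2 thymus values. Both thymus values lay above the cortex values. The difference was -1.28 ± 0.49 (SE, n = 3 cortex and 2 thymus arrays; adjusted p = 0.0399, limma). It was lost unscaled, at -0.42 ± 0.81 (adjusted p = 0.775), and with scan setting as a block, at -1.02 (adjusted p = 0.16). With flagged spots kept, all 6 arrays had a value and the scaled difference was -1.67 ± 0.46 (adjusted p = 0.00915). Leaving out cortex array 1 or cortex array 2 also ended the call, at -0.83 and -1.39 (adjusted p = 0.24 and 0.0958). In all it was lost in 9 of 17 alternatives, whose adjusted p ranged from 0.00915 to 0.775.

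Adra2c, a presynaptic α2 receptor of brain, had scaled values on oligo 2 of 10.04, 9.90 and 9.43 on the cortex arrays and 11.12, 10.81 and 10.18 on the thymus arrays. The tissues did not overlap, although cortex array 3 and thymus arrays 2 and 3 were not above background. The difference was -0.91 ± 0.37 (adjusted p = 0.051, limma), and -1.25 with scan setting as a block (adjusted p = 0.00819). Without thymus array 3 it was -1.19 (adjusted p = 0.0134, limma) and without cortex array 3 it was -0.73 (adjusted p = 0.181). Without both arrays of setting 2, cortex array 3 and thymus array 2, it was -0.68 (adjusted p = 0.25). Unscaled it was 0.11 ± 0.73. Oligo 1 of Adra2c, above background on cortex array 2 alone, had scaled means of 8.64 ± 0.32 in cortex and 8.48 ± 0.26 in thymus (SD, n = 3). Adra2b differed by -0.49 ± 0.37 on oligo 2 (adjusted p = 0.298, limma) and by 0.36 ± 0.73 unscaled. Its oligo 1 was above background on no array, so no level is read from it, and the same holds for oligo 2 of alpha 2. In the scaled fit with no filter on dim oligos, Adra2b oligo 1 was called higher in thymus, at -1.79 ± 0.42 (adjusted p = 0.00474, limma). Oligo 2 of alpha 2 was not called there. The tissues did not overlap at Adra2b oligo 1 unscaled either, on values not above background.

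Neither α1 receptor was called on its tested oligo in any of the 3 fits, and neither of these oligos lay below the median of the array. Adra1a, an α1 receptor of brain and of smooth muscle, had scaled values on oligo 1 of 10.48, 10.90 and 10.50 on the cortex arrays and 10.93, 10.29 and 10.13 on the thymus arrays. The tissues overlapped, with thymus array 1 the highest of all. The difference was 0.18 ± 0.36, with a 95% confidence interval from -0.58 to 0.94 (adjusted p = 0.728, limma). Unscaled, its values were 11.70, 11.61 and 10.03 on the cortex arrays and 10.94, 9.50 and 9.49 on the thymus arrays, and the difference was 1.13 ± 0.73 (adjusted p = 0.283). Adra1b, the other α1 receptor on the array, differed by -0.10 ± 0.39 on oligo 2 after scaling and by 0.90 ± 0.73 unscaled (adjusted p = 0.878 and 0.416, limma). Against the median of all tested oligos, Adra1a oligo 1 lay at 0.28 scaled and 0.27 unscaled, and Adra1b oligo 2 at 0.00 and 0.04. Oligo 1 of Adra1b, above background on thymus array 2 alone, was not tested. Its scaled means were 7.70 ± 0.31 in cortex and 9.48 ± 1.10 in thymus (SD, n = 3) without overlap, and its unscaled values overlapped. In the scaled fit with no filter on dim oligos it was called higher in thymus, at -1.77 ± 0.49 (adjusted p = 0.0116, limma).

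Oligo 2 of Adra1a gave bright spots that the scanner software flagged as bad. Of its 12 spots, 8 were flagged, on cortex arrays 1 and 2 and thymus arrays 1 and 3, and each of the 8 was above background. The unflagged spots had net signals of 2237 and 2600 on cortex array 3 and of 5552 and 6494 on thymus array 2. With a value on 1 array per tissue the oligo was not tested. With flagged spots kept, its scaled values were 12.85, 12.42 and 11.82 on the cortex arrays and 13.73, 13.51 and 11.95 on the thymus arrays. These overlapped, at -0.70 ± 0.47 (adjusted p = 0.244, limma), and unscaled the difference was 0.25 ± 0.73.

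Over the 7 described entries together, 3 of the 9 tested receptor oligos were called higher in thymus after quantile scaling, where 23.7% of all tested oligos were. None was called higher in cortex, where 24.3% of all tested oligos were. At an unadjusted p under 0.05 in limma, 4 lay toward thymus and 0 toward cortex, and the share of all tested oligos at that threshold was not taken. The 3 called at the adjusted threshold were both Adrb3 oligos and oligo 1 of alpha 2. With arrays centred on the control genes 1 of 9, Adrb3 oligo 2, was called higher in thymus and none in cortex, beside 6.02% and 30.5% of all tested oligos. Unscaled, none was called in either direction, beside 0% higher in thymus and 25.2% higher in cortex, and none had an unadjusted p under 0.05 in limma. The tissues did not overlap at 5 of the 9 oligos after quantile scaling and at none unscaled, where 55.7% and 32.3% of all tested oligos did not overlap. The median difference of the 9 oligos was -0.70 scaled and 0.30 unscaled. It lay 0.60 and 0.56 below the median of all tested oligos, and 7 of the 9 oligos lay below that median in both fits. The exceptions were Adra1a oligo 1 and Adra1b oligo 2. In the quantile-scaled fit the receptors of the other monoamines also had more calls toward thymus than toward cortex. These were 4 and 1 of 9 tested oligos of dopamine receptors, and 9 and 1 of 19 of serotonin receptors. Of all tested oligos, 23.7% were called toward thymus and 24.3% toward cortex in that fit. Unscaled, no tested oligo of the array was called higher in thymus.

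**Figure D4:**
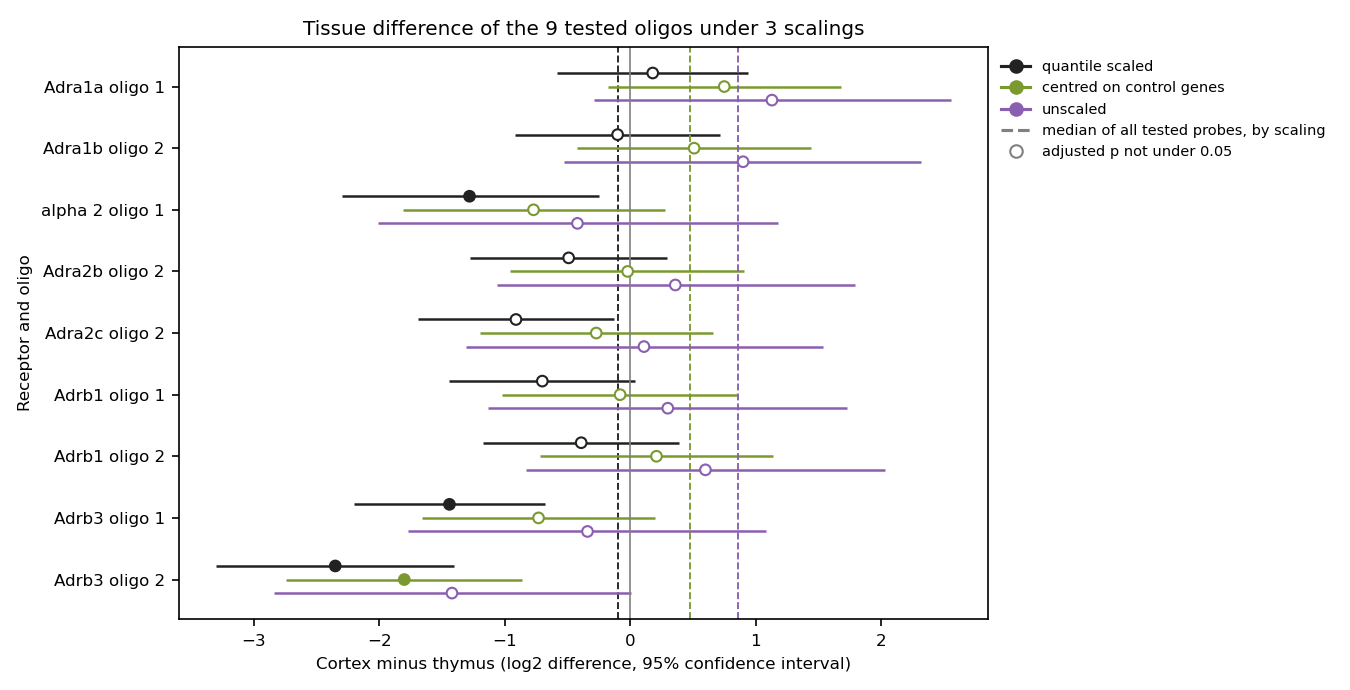
Log2 difference, cortex minus thymus, with its 95% confidence interval (x axis) for the 9 tested oligos (y axis) under 3 scalings. Filled points have an adjusted p under 0.05, and each dashed line is the median of all 465 tested oligos under that scaling. Adrb3 oligo 2 lies farthest to the left of its line in each fit, and the points shift together with the lines.

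Other genes of noradrenergic signalling were few on the array. From lists of synthesis, transport, breakdown, G proteins with cyclases and kinases, and desensitization, 4 genes were matched, with 7 tested oligos. Of these oligos, 2 were called higher in thymus after scaling and none in cortex, where 23.7% and 24.3% of all tested oligos were, so the thymus count is near that of the array. Both were of Arrb2, printed as arrestin-beta2, which uncouples and internalizes activated β receptors, at -1.01 ± 0.35 and -0.94 ± 0.38 (adjusted p = 0.0265 and 0.047, limma). Unscaled they differed by 0.05 ± 0.73 and 0.13 ± 0.73, so these calls too depend on the scaling. The enzymes of noradrenaline synthesis did not pass: Th, the rate-limiting enzyme of catecholamine synthesis, differed by -0.24 ± 0.44 and 0.06 ± 0.41, and Dbh, which makes noradrenaline from dopamine, by -0.72 ± 0.38 on its tested oligo. Unscaled, Th was at 0.66 ± 0.73 and 0.94 ± 0.73 and Dbh at 0.05 ± 0.73, and none passed. Prkaca, a catalytic subunit of the cyclic AMP-dependent kinase, differed by 0.65 ± 0.48 and 0.56 ± 0.36 scaled and did not pass. Unscaled it was higher in cortex on oligo 1, at 2.25 ± 0.81 (adjusted p = 0.0262, limma), with values on 2 cortex arrays.

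The oligos most like Adrb3 oligo 1 over the 6 arrays were sought among 430 other tested oligos with a value on every array. Pearson's r of the scaled values was 0.999 for oligo 1 of the receptor printed as opioid m, 0.992 for an oligo of a potassium channel entry without a printed name and 0.987 for an oligo of rps4x, a ribosomal protein gene printed as a control. All 3 were higher in thymus in the scaled fit, by -1.08, -1.20 and -2.44 log2 units, cortex minus thymus. Their choice by likeness to an oligo higher in thymus favoured that direction, so it is no separate result. Unscaled, no tested oligo of the array was called higher in thymus. Unscaled, r was 0.979, 0.983 and 0.833. With 6 points that share pools and scans, these values are a description.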

How the data were processed

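Per the file headers, the authors' software segmented spots automatically and measured a local background. The deposited values are spot intensities on the linear scanner scale, without normalization. Another deposited column, the software's flag, marks bad spots. No source used here names the program.

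Signal medians were corrected with normexp (offset 50, limma 3.58.1 in R 4.3.3). Flagged spots, blank spots and control spots of other organisms were left out. The other 52 control oligos, such as those of rps4x, stayed among the 590 gene oligos. The 2 spots of an oligo were averaged as log2 values, and arrays quantile-scaled. All tested oligos were fitted with lmFit and eBayes, two-sided, Benjamini-Hochberg threshold 0.05; the fit was tested on simulated data. Unscaled arrays, and arrays centred on 52 control oligos, were fitted likewise. Members, lists and tests were chosen with earlier results of these data known. The rule named every described receptor oligo, the 3 oligos most like the best-detected one, and the listed genes on the array. Of 7 receptors, 3 were named by accession and 3 by printed name through the RefSeq gene table of GRCm38.p6; alpha 2 kept its printed name. The 2 oligos of the eighth entry were tested in every one of these fits but are not reported here, so the counts of receptor oligos cover 9 of the 11 tested in the class. The deposited value table, also in intensity units, holds none of these oligos and entered no fit. Alternatives covered scaling, background, offset, spot measure, filter, flags, blocks and left-out arrays. Same-numbered arrays did not deviate together (r = 0.167, -0.0902 and 0.0106), so numbers were not taken as pairs. The number of arrays limits the precision.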

Additional observations from a re-analysis of the deposited data

Results flagged for a closer look

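All 8 flagged spots of Adra1a oligo 2 lay above background, with net signals from 1172 to 17212.5, though the comparison leaves flagged spots out. The 3 flagged spots of oligo 1 of alpha 2 did so as well, with net signals from 583 to 1346.5. Of all gene spots, 4.81% were flagged, and of the 168 spots of the described receptors 16 were. Why these spots were flagged was not tested.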

How the results depend on the processing

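Of 162 values of single oligos under 20 alternatives, 134 kept direction and side of the threshold, 13 lost a call, 5 gained one and 10 changed sign. The 3 calls toward thymus became 0 without scaling, and 1 with control-gene centring, with background subtracted (floor of 1) and with a filter of all 6 arrays, which left 2 oligos. With 1 array left out the count was 2 to 3, with 5 to 9 oligos tested, and calls toward cortex stayed at 0. The median of -0.70 became 0.30 unscaled, -0.08 with control genes and -1.22 with subtraction, and was -1.11 to -0.64 with an array left out. The lowest came without cortex array 2, where 6 oligos were tested. Sign changes without scaling were Adrb1 at 0.30 and 0.60, Adra2b oligo 2 at 0.36, Adra2c oligo 2 at 0.11 and Adra1b oligo 2 at 0.90; with control genes, Adrb1 oligo 2 at 0.21 and Adra1b oligo 2 at 0.51. Adra1b oligo 2 was also at 0.02 without background correction and at -0.40 to 0.29 with an array left out (0.29 without thymus array 1), and Adra1a oligo 1 at -0.04 with scan setting as a block. Adrb3 oligo 2 lost its call with subtraction (-3.34, adjusted p = 0.0551). With each array left out in turn, Adrb3 kept its calls, at -2.76 to -1.80 and -1.61 to -1.26 (highest adjusted p = 0.0077 and 0.0325, limma). With the replicate block the count was 3 and the median -0.70, and no call of a single described oligo moved. Without cortex array 3 and thymus array 2, the arrays of setting 2, the count was 2, both of Adrb3 (-1.68 and -1.49). This alternative was chosen after seeing the data. With no filter 4 of 13 oligos were called, among them 2 above background on at most 1 array, oligo 1 of Adra1b and of Adra2b. The cause of these moves was not tested.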

Other observations

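The deposited value table gave the same array under different labels. Over its 20 oligos, the column of cortex array 3 was 3.07 times the column of thymus array 1 at the lowest, the median and the highest. Set against the net signals of the scanner files, that cortex column was 5.68 times thymus array 1 at both quartiles, and 1.2 to 25.4 times cortex array 3. The scanner file of cortex array 3 itself had rank correlations of 0.933 and 0.903 with the other cortex arrays and of 0.557 to 0.587 with the thymus arrays, and the receptor values rest on the scanner files alone.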
